A study of Mus musculus with 4 samples.

Results

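Retinoic acid signalling was examined through the promoters of 10 genes, the 6 receptor genes Rara, Rarb, Rarg, Rxra, Rxrb and Rxrg and the 4 enzyme genes Aldh1a2, Aldh1a3, Cyp26a1 and Cyp26b1, out of 22367 protein-coding genes of the GENCODE vM1 annotation. The genes were chosen by name. Each was measured at every annotated transcription start site, which gave 46 distinct starts, by counting unique read positions within 1 kb on each side on the mm9 build. Starts are numbered from the 5′ end of each gene. Where 1 start stands for a gene, it is the one with the largest summed H3K4me3 of both H3K4me3 libraries, and the same rule was used for every gene.

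Retinoic acid is made from retinol in 2 oxidation steps, the second of which is carried out by retinaldehyde dehydrogenases such as those encoded by Aldh1a2 and Aldh1a3. It is degraded by the cytochrome P450 enzymes of the Cyp26 family. Within the nucleus it binds retinoic acid receptors (RARs), which sit on DNA as partners of retinoid X receptors (RXRs) at paired half-sites called retinoic acid response elements. In embryonic stem cells, added retinoic acid drives differentiation, including towards neural fates, and Rarb and Cyp26a1 are classical genes that it induces.

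The study measured chromatin by immunoprecipitation and sequencing (ChIP-seq) in E14TG2a.4, a mouse embryonic stem cell line kept without feeders in medium with serum and LIF. The 2 Jarid1b libraries were labelled only as E14 stem cells. They were made with an antibody against Jarid1b, the Kdm5b product, a demethylase of lysine 4 on histone H3. A further pair of libraries was made with an antibody against trimethylated lysine 4 (H3K4me3), a mark of active or poised promoters, 1 from cells carrying a scrambled short hairpin RNA (LKO Scr) and 1 from cells carrying a Jarid1b hairpin (LKO Jarid1b). Both hairpins were delivered by lentivirus and the cells were selected with puromycin. Each H3K4me3 condition has 1 library, so the conditions could not be tested against each other or checked in replicates, and every interval given covers counting error alone. How far the hairpin lowered Jarid1b was not measured in these libraries. A change in the share of cells that carry a mark and a change in its amount per cell cannot be told apart here.

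The libraries held 4336767 and 1602370 unique reads for Jarid1b, 5158330 for scrambled H3K4me3 and 2635705 for Jarid1b-hairpin H3K4me3. At the same base, 16.8% of the plus-strand positions of the smaller Jarid1b file were found in the larger one, against a median of 1.34% at other offsets, so the pair was counted as 1 sample. The label of the cells was checked at promoters listed as stem cell markers. All 8 carried H3K4me3 in the scrambled library and 7 in the Jarid1b-hairpin library. There Zfp42 fell short (116 and 22 reads). Of 5 blood and liver markers 1 carried the mark in each library, and Afp had no read in either. The mark was also called at 7 of 8 early lineage markers in each library. Of 5 fibroblast markers, 4 carried it in the scrambled and 5 in the Jarid1b-hairpin library. Over all genes the share was 63.5% in each, so these calls do not separate stem cells from those lineages.

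The promoter sequences with a match to the letters of a retinoic acid response element are shown first. The search looked for direct repeats of a half-site with 5 bases between the copies (the DR5 spacing), on both strands. A half-site was the hexamer AGGTCA, the variant AGTTCA, the variant GGGTCA or the variant GGTTCA. A DR5 repeat lay within 1 kb of the representative start in 3 of the 10 genes (Rara, Rarb and Cyp26a1), against 0.563% of the 22367 representative windows. In the following stretches, read 5′ to 3′ along the gene, capitals mark the 2 half-sites. Rarb is shown at chr14:17407937-17408136 (mm9, minus strand) and Cyp26a1 at chr19:37772148-37772347 (plus strand), both from 150 bases before to 49 after the start site. Rara is shown at chr11:98821226-98821425 (plus strand), upstream of its start 7.
Rarb: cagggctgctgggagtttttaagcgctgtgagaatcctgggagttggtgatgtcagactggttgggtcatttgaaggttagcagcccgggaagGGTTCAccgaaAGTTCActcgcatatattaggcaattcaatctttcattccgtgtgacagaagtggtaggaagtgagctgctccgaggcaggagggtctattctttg
Cyp26a1: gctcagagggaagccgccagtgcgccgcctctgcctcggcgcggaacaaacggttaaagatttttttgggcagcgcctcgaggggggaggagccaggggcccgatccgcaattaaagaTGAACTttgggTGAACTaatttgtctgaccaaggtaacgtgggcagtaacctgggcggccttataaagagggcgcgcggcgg
Rara: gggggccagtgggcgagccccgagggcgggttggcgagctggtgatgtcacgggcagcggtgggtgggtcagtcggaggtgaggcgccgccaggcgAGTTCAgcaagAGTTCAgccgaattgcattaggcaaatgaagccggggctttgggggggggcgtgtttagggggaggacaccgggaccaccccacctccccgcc

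The Rarb repeat began 57 bases before the start and read in the direction of the gene. The Cyp26a1 repeat began 32 bases before its start and lay on the opposite strand. The Rara repeat began 404 bases before start 7, in the direction of the gene. No DR1 or DR2 repeat (spacings of 1 and 2 bases) lay in any of the 10 representative windows, while 1.18% of all such windows held each of them. At other starts, a DR5 repeat lay near Rarg start 3, and another was shared by 3 neighbouring internal starts of Rxrb. A DR1 repeat lay near Rarg start 3 and another near Rxra start 5. A match describes these letters only and is not a measured binding site.

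A second pair of stretches shows how the promoters with the largest H3K4me3 ratios are built. They run from base −100 to base 49 relative to the representative starts of Rxra at chr2:27532621-27532770 and Aldh1a2 at chr9:71063496-71063645 (both mm9, plus strand), with each CG dinucleotide in capitals. The Rxra stretch held 34 CG dinucleotides and was 90.0% G or C, and the Aldh1a2 stretch held 23 and was 74.0%. Rarb's stretch above was 50.0% G or C.
Rxra: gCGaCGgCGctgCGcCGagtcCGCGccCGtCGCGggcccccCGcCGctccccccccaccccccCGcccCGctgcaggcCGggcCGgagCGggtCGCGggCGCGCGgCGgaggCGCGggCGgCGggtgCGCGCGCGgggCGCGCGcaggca
Aldh1a2: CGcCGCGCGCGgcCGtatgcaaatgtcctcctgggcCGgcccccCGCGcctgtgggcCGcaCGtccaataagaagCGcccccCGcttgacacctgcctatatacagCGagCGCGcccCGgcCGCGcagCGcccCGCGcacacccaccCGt

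H3K4me3 marked all 10 genes in both libraries at the representative start, by a one-sided exact Poisson test within each library. The same call was made for 63.5% of all genes in the scrambled library and 63.5% in the Jarid1b-hairpin library. In the scrambled library the genes fell into a high and a low class. Rxrb had 53.3 RPM (reads per 1000000 unique reads of the library; lower bound of the 95% Poisson interval 47.2), Rarg 48.9 (43.0 to 55.3) and Rara 37.0 (32.0 to 42.7). These 3 receptor genes stood above 91.1% of all genes, and Rara lay below Rxrb and Rarg beyond their intervals. The Rxrb window also holds starts of Slc39a7 on the other strand, so its level cannot be assigned to Rxrb alone.

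The other 7 genes lay between 1.94 and 7.17 RPM, in the order Rxra, Aldh1a3, Rarb, Aldh1a2, Cyp26b1, Cyp26a1 and Rxrg. The interval of each overlapped that of the next, so neighbours in this order did not differ beyond counting error. The median gene with scrambled H3K4me3 stood at 18.0 RPM, above all 7.

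In the Jarid1b-hairpin library the order changed. Rxrb stood at 68.3 RPM, Rara at 58.0, Rarg at 43.3 and Rxra at 41.4, each overlapping the next. Rxra thus joined the high class. A gap beyond the intervals separated it from Aldh1a2 at 19.7 RPM (14.7 to 25.9), below which Aldh1a3 (16.3), Cyp26b1 (interval 7.37 to 15.8), Rarb (7.21), Cyp26a1 (6.07) and Rxrg (3.79) formed an overlapping series.

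**Figure D1:**
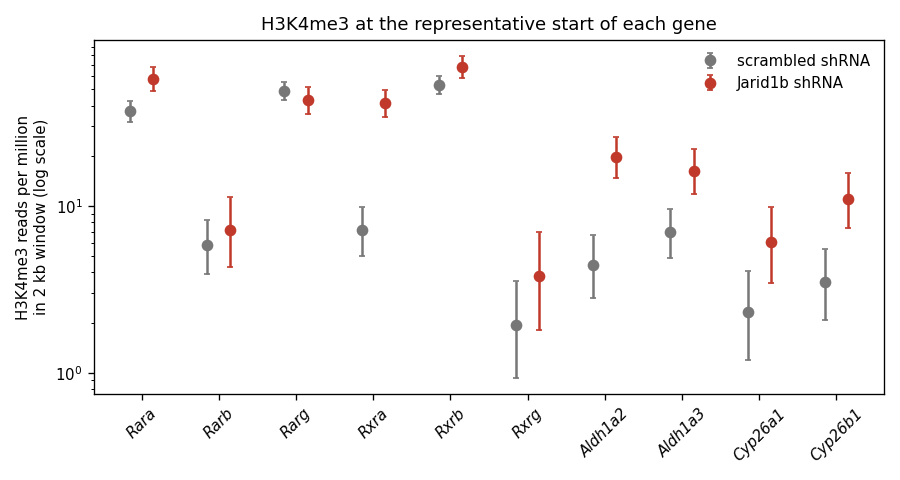
H3K4me3 level of each of the 10 genes at its representative start, in RPM per 2 kb window on a log axis, in the scrambled (grey) and Jarid1b-hairpin (red) libraries, 1 library each, with 95% Poisson intervals. Rxra goes from 7.17 to 41.4 RPM, while Rarg lies at 48.9 and 43.3.

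The hairpin comparison asked how H3K4me3 differed when Jarid1b was targeted. A call of higher or lower needed an RPM ratio of at least 2-fold and a 95% exact Clopper-Pearson interval that excluded 0 on the log2 scale. All 10 genes had the 20 reads over both libraries needed to be compared. Of these, 5 were called higher, namely Rxra and all 4 enzyme genes, and none lower. With the median ratio of all genes set to 0, or with the genome-wide trend of the ratio with the GC content of the window removed, 3 were called higher, of which 2 are enzyme genes. Among the 14027 genes compared, 24.1% were called higher and 2.31% lower. Higher calls were thus 91.2% of all calls, and 57.5% with the median ratio set to 0. The median log2 ratio of the 10 genes was 1.10, beside 0.42 over all genes compared, and 7 of the 10 lay above that overall median.

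Rxra encodes the most widely used partner of the RARs. Its representative start 2 held 37 reads in the scrambled and 109 in the Jarid1b-hairpin library, a log2 ratio of 2.53 (1.98 to 3.11), the highest of the 10. Starts 1 and 3, which overlap it, gave 2.48 and 2.55. Start 6, deep inside the gene, had 21 and 12 reads and a ratio of 0.16 (−0.995 to 1.25). The difference was therefore seen at the 5′ promoter and not at the internal start, whose interval lies below that of the promoter.

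Aldh1a2, which makes most of the retinoic acid of the early embryo, had 23 and 52 reads and a ratio of 2.15 (1.41 to 2.92). Aldh1a3, a dehydrogenase with roles in eye and nasal development, had 36 and 43 reads, or 1.23 (0.55 to 1.91). Its start 2, which overlaps the first window, gave 1.34 (0.36 to 2.34). The intervals of the 2 synthesis genes overlap each other. At start 1 the Aldh1a3 call was lost with the GC trend removed (0.73) and with median scaling (0.81). At start 2 the higher call was kept with the GC trend removed (1.30) and lost with median scaling (0.92).

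Among the degrading enzymes, Cyp26b1 had 18 and 29 reads at its start 2, or 1.66 (0.76 to 2.59). Cyp26a1 had 12 and 16 reads, or 1.38 (0.21 to 2.60). Cyp26a1 rests on the fewest reads of the 5 called genes and its lower bound lies nearest to 0. Rxrg, not called, had 10 reads in each library, which is the least that could be compared, and a ratio of 0.97 (−0.45 to 2.39).

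The remaining receptor genes were not called at their representative starts. Rara had 191 and 153 reads, or 0.65 (0.33 to 0.96). Rxrb had 275 and 180 reads, or 0.36 (0.08 to 0.63). Its window also holds the starts of Slc39a7 on the other strand, at −784 to −122 bases from it, so its reads cannot be assigned to 1 gene. Rarb had 30 and 19 reads, or 0.31 (−0.60 to 1.19), and Rarg had 252 and 114, or −0.18 (−0.51 to 0.15). Of the 3 genes with a DR5 repeat near the start, Cyp26a1 was called higher and Rara and Rarb were not.

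**Figure D2:**
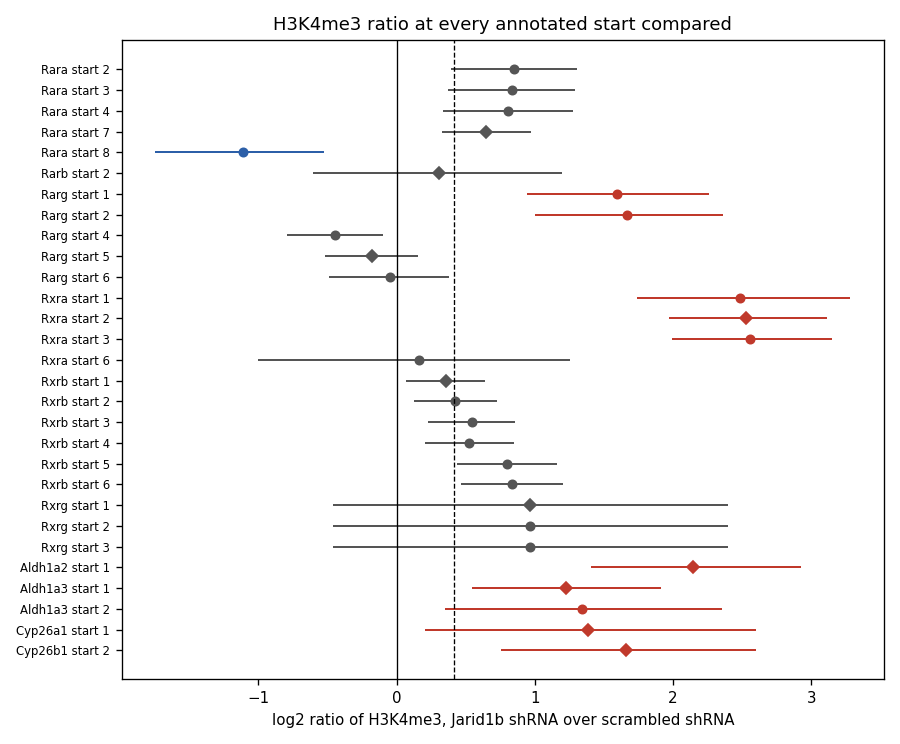
Log2 ratio of H3K4me3 between the Jarid1b-hairpin and scrambled libraries at the 29 starts compared, with 95% Clopper-Pearson intervals; diamonds are representative starts, red starts are called higher, the blue start lower, and the dashed line is the median of all genes (0.42). Rara start 8 lies at −1.11 while the other Rara starts compared lie at 0.65 or above, and Rarg starts 1 and 2 lie above 1.5 while Rarg starts 4 to 6 lie below 0 (starts 5 and 6 above 0 when scaled to background bins).

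RAR genes are known to use an upstream and an internal promoter, which give proteins that differ at the amino terminus, so the starts were also compared within each gene. Of the 46 starts, 29 carried H3K4me3 in the scrambled and 28 in the Jarid1b-hairpin library, against 54.8% and 54.7% of all 70051 starts. Neighbouring windows share reads and are not independent. Of the 29 starts compared, 10 in 6 genes were called higher and 1 lower, where 21.2% and 2.9% of all compared starts were. A change of library scaling moves every start by the same amount, so differences between starts of 1 gene do not depend on it.

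Rarg showed different values at its 2 ends. Start 1, at base 102087948 of chromosome 15, had 35 and 54 reads, a ratio of 1.59 (0.95 to 2.25), and start 2 gave 1.67. Both were called higher. Start 4, 11017 bases downstream of start 1 at base 102076931, had 269 and 101 reads, a ratio of −0.44 (−0.79 to −0.11). The intervals of starts 1 and 4 do not overlap. In the scrambled library start 4 stood at 52.1 RPM and start 1 at 6.79, whereas in the Jarid1b-hairpin library they stood at 38.3 and 20.5. The internal promoter was the stronger in both libraries. Start 4 did not reach the 2-fold limit and was not called lower. Scaled to background bins it stood at −0.19, with an interval that was no longer wholly negative. The negative sign at starts 5 and 6 also depends on scaling: they stood at 0.08 and 0.20 when scaled to background bins.

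Annotated Rara starts carried H3K4me3 at 3 places in the scrambled library. The group of starts 2 to 4, near base 98799012 of chromosome 11, had 89 and 82 reads at start 2, or 0.85 (0.40 to 1.30). Start 7, at base 98821726, is the representative start described above. Start 8 lies further downstream, at base 98826186, with 127 reads in the scrambled and 30 in the Jarid1b-hairpin library. Its ratio of −1.11 (−1.74 to −0.53) was called lower, and its interval does not overlap that of start 7. Start 8 was not called for H3K4me3 in the Jarid1b-hairpin library. Its lower call was lost when ratios were scaled to background bins (−0.86). A further enriched region, chr11:98802001-98804000, lay 975 bases from the nearest start and had 63 and 45 reads, or 0.48 (−0.10 to 1.06). Start 1, 9880 bases upstream of start 2, had 4 and 5 reads and no call.

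In 1 kb bins of the genome, 1.78% were enriched in the scrambled and 1.52% in the Jarid1b-hairpin library. A region of 6 kb at Rara, chr11:98821001-98827000, covers starts 7 and 8. All 6 of its bins were enriched in the scrambled library and 3 in the Jarid1b-hairpin library, which holds fewer reads. As a whole it had 442 and 234 reads, a ratio of 0.05 (−0.18 to 0.28). Of the reads within 5 kb of start 7, 44.3% lay within 1 kb in the scrambled library and 62.2% in the Jarid1b-hairpin library. Over all genes compared the medians were 80.0% and 84.2%, with the second share larger in 65.2% of genes. Among the 10 genes it was larger in 7, a share near that background.

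Rarb, which spans a long locus on chromosome 14, carried the mark, of its 2 annotated starts, at the internal start 2, at base 17407986, beside the DR5 repeat printed above. Start 1 lies 243395 bases upstream and had 2 and 1 reads. Cyp26b1 likewise had 3 and 3 reads at start 1, and its mark lay at start 2, 5108 bases downstream. Rxrb starts 1 to 6 lie within 589 bases, with ratios from 0.36 at start 1 to 0.84 at start 6.

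**Figure D3:**
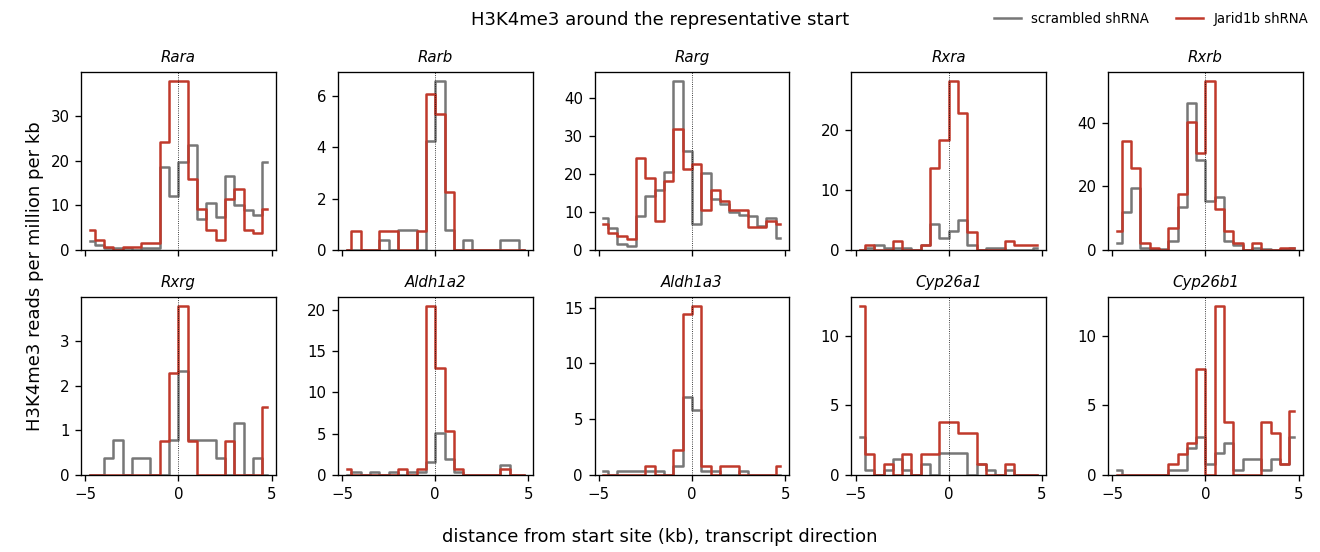
H3K4me3 in bins of 500 bases from 5 kb upstream to 5 kb downstream of the representative start of each gene, in RPM per kb, for the scrambled (grey) and Jarid1b-hairpin (red) libraries; vertical scales differ between panels. Rxra, Aldh1a2 and Aldh1a3 show single peaks at the start with 89.3%, 92.9% and 91.5% of the Jarid1b-hairpin reads within 1 kb, while Rara and Rarg show broad signal and Cyp26a1 has its highest bin near 5 kb upstream.

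Across the loci and 5 kb around them, 22 enriched regions were found, 8 of which lay over 1 kb from every annotated start of their gene. Of these 8, 2 lay at starts of other genes, near H2-Ke6 and Lrrk1. Another, chr6:84524001-84525000 inside Cyp26b1, was enriched in both libraries with 12 reads each. At Cyp26a1 a region 4298 bases upstream of the start, chr19:37767001-37768000, had 9 and 17 reads, a ratio of 1.89 (0.64 to 3.23), and was enriched in the Jarid1b-hairpin library alone. It overlaps the 3′ end of Cyp26c1, the neighbouring gene of the same enzyme family. Cyp26c1 itself had 10 and 6 reads at its start and no H3K4me3 call. The others, of which 3 were enriched in the scrambled library alone and 1 in the Jarid1b-hairpin library alone, held 17 reads or fewer over both.

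Jarid1b itself was measured at the same windows. It was enriched in both Jarid1b libraries at 3 of the 10 genes, Rxra, Aldh1a2 and Cyp26a1, against 8.84% of all genes. All 3 were among the 5 genes with higher H3K4me3, a call made for 49.9% of the 1959 Jarid1b-enriched genes compared. With the GC trend removed that share was 25.7%, and 2 of the 3, Rxra and Aldh1a2, were called higher. Aldh1a2 had 26 and 8 reads, which is 7.67-fold (5.01 to 11.2) and 6.39-fold (2.76 to 12.6) over the genome average, with adjusted p of 2.87e-12 and 0.00198 in exact Poisson tests. Cyp26a1 had 20 and 12 reads, 5.90-fold and 9.58-fold (adjusted exact Poisson p = 0.00623 and 0.0168). Rxra had 22 and 9 reads, 6.49-fold and 7.19-fold (adjusted exact Poisson p = 0.00109 and 0.0424).

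Of the other enzymes, Aldh1a3 passed in the first library alone, with 15 and 6 reads, and Cyp26b1 had 17 and 5 reads and passed in neither. Rara also had 17 and 5 reads, and Rxrb 12 and 6. Rarg had 11 and 4 reads, Rxrg 9 and 1, and Rarb 5 and 3. Rarb was the lowest in the first library at 1.47-fold and Rxrg in the second at 0.798-fold, and these intervals include the genome average. In the first library Rxrg stood at 2.65-fold (1.21 to 5.04), above the genome average. The median of all genes with scrambled H3K4me3 was 3.24-fold in the first library and 3.19-fold in the second. Against bins of the same GC content, Rxra stood at 1.23-fold and 1.18-fold, Aldh1a2 at 2.10-fold and 1.65-fold, and Cyp26a1 at 1.61-fold and 2.48-fold. The 3 calls are sensitive to the background used. With windows of 500 bases on each side, or with the background taken from bins of the same GC content, none of the 10 was called, and in the GC-adjusted setting 87 of all genes were.

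**Figure D4:**
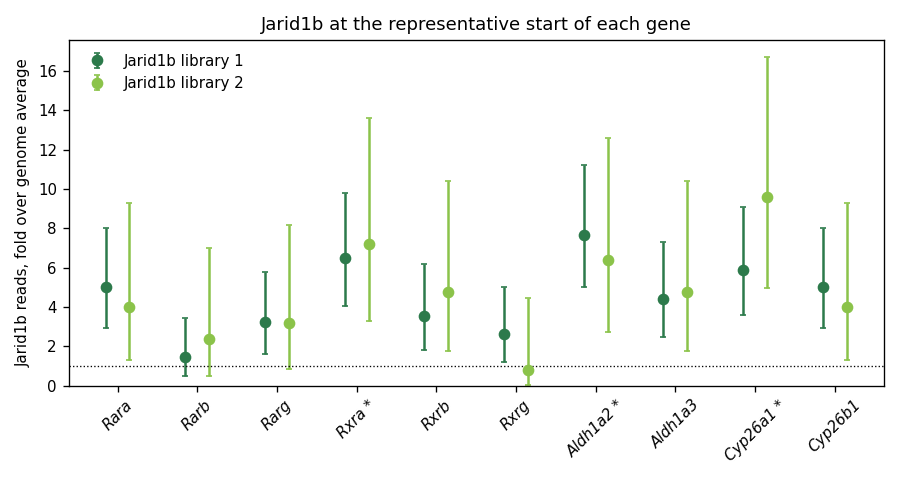
Jarid1b reads at the representative start of each gene as fold over the genome average, in the 2 Jarid1b libraries, with 95% Poisson intervals; the dotted line marks the genome average and asterisks mark genes enriched in both. Rxra, Aldh1a2 and Cyp26a1 carry the calls, and Rarb lies at 1.47-fold and 2.40-fold.

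GC content moved with these results. The representative windows of the 10 genes were 60.5% G or C in the median, and those of all genes 51.7%. The 5 genes called higher had 59.95% to 71.0%, and the other 5 had 50.55% to 65.6%. Among all genes with 60 to 65% GC, the median log2 ratio was 1.07, 54.1% were called higher and 30.6% were Jarid1b enriched. Of the 4 genes here in that class, Cyp26b1, Cyp26a1 and Aldh1a2 were called higher and Rara was not. The part of base composition in the ratios was not tested.

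With the GC trend removed, 3 of the 10 genes were called higher (18.3% of all genes), namely Aldh1a2 at 1.53, Rxra at 1.49 and Cyp26b1 at 1.10. The same 3 were called with the median ratio of all genes set to 0 (12.1% of all genes), at 1.73, 2.11 and 1.24. Cyp26a1 and Aldh1a3 then stood at 0.82 and 0.73 without the GC trend, and at 0.97 and 0.81 with median scaling. Rara turned to −0.12 without the GC trend, Rxrb to −0.58 without it and −0.06 with median scaling, Rarb to −0.11 with median scaling, and Rarg to 0.13 without the GC trend. With windows of 500 bases on each side Rarg stood at 0.42 and Rara at 1.26, which was then called higher, while Cyp26a1, Cyp26b1 and Rxrg could not be compared. Rarg starts 1 and 2 kept their calls without the GC trend and with median scaling (1.16 and 1.18 at start 1). The lower call of Rara start 8 was also kept under these 2 settings (−1.28 and −1.53), but was lost with scaling to background bins.

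**Figure D5:**
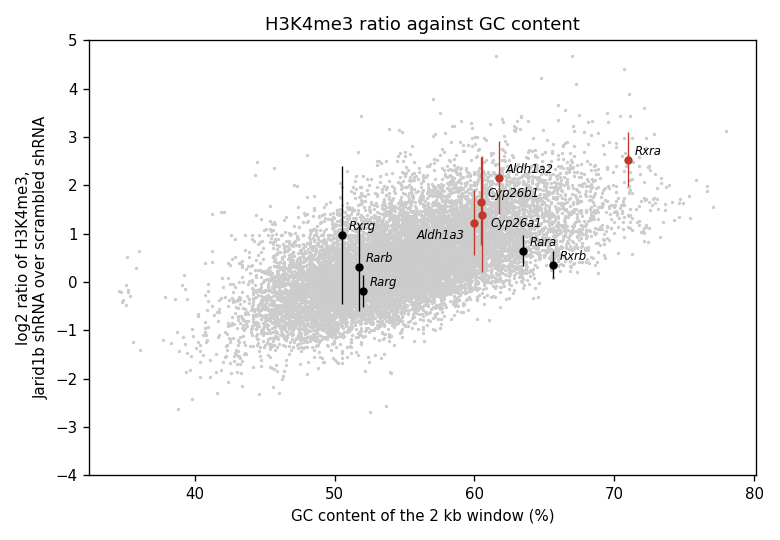
Log2 ratio of H3K4me3 against the GC content of the 2 kb window, for all genes compared (grey points) and the 10 retinoic acid genes (red where called higher, black where not, with 95% intervals). The ratio is higher at GC-rich windows in general, and Rara (63.5% GC) and Rxrb (65.6%) have lower ratios than Aldh1a2 (61.75%).

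Other genes of the pathway were taken from a list of 45, of which 33 could be compared. Of these, 13 were called higher and 1 lower, with a median log2 ratio of 0.74, where 24.1% and 2.31% of all genes compared were. With the GC trend removed 9 were higher, beside 18.3% of all genes. Of 7 retinoic acid target genes compared, 6 were called higher, at a median log2 ratio of 1.499. This became 4 without the GC trend and 3 with median scaling, where 18.3% and 12.1% of all genes were called. Among the targets, Stra8, a gene of meiotic entry, had 5 and 23 reads (3.17), and the caudal homeobox gene Cdx1 had 8 and 20 (2.29). Receptor partners had 2 of 5 higher, with Nr2f1, an orphan receptor gene, at the largest ratio of the list (7 and 49 reads, 3.78, 2.63 to 5.16).

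Among 8 coregulator genes 3 were called higher, at a median of 0.60, and none of the 8 without the GC trend. Retinoid carriers had 1 of 5 higher, the plasma retinol carrier gene Rbp4 (21 and 48 reads), with a median of 0.59. The enzymes of retinol and retinal had 1 of 8 higher, Dhrs3 (38 and 52 reads), which reduces retinaldehyde, and 1 lower, with a median of 0.08. The lower gene is Rdh11, whose ratio was −0.20 and not called without the GC trend. The lowest ratios of the list were Rdh11, a retinal reductase gene, at −1.05 (85 and 21 reads), Adh5 at −0.06 and Med1 at −0.04. Aldh1a1, the remaining retinaldehyde dehydrogenase gene, had 1 and 0 reads.

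Marker promoters moved in the same comparison. The summed H3K4me3 of the 8 stem cell markers was 392.2 RPM in the scrambled and 288 in the Jarid1b-hairpin library. Of these, 4 were called lower, and none of the 4 with the GC trend removed. With median scaling the 4 (Pou5f1, Nanog, Zfp42 and Tdgf1) stood at −1.43, −1.51, −1.85 and −1.58. Among the other stem cell markers Dppa4 then stood at −1.26, Esrrb at −0.95, Sox2 at −0.15 and Klf4 at 0.11. Over the 8 early lineage markers found, of 9 listed, the sum was 50.4 and 107 RPM, with 6 of 7 compared called higher, 4 without the GC trend and 3 with median scaling. Over 5 fibroblast markers it was 20.5 and 55.4 RPM, with 2 of 4 called higher, and 1 under either alternative. Over all genes the shares called higher were 24.1%, 18.3% and 12.1% in the same order. No stem cell, early lineage or fibroblast marker was at 0 in either library. Their part in the values of the 10 genes was not tested.

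Genes with the most similar pattern were found by Euclidean distance over the 4 libraries, in log2(RPM + 0.1). Closest to Rxra were Brsk2 (distance 0.29; 43 and 119 H3K4me3 reads), Lingo1 and Hdgfrp3 (both 0.33). Closest to Rarg, which had the lowest representative ratio, were Nsun2 (0.025; 252 and 112 reads), Rbbp4 and Zbtb8os (both 0.14).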

How the data were processed

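Per the labels, reads were mapped to mm9 with Bowtie (version not given in the sources used here), duplicates at a position were dropped, and MACS peaks and IgG normalization followed. The deposited rows are single aligned reads: positions recur, no peaks are listed, and the score column of the deposited files is 0 throughout. They therefore come from before those steps, and no IgG library was used here. Here a strand and 5′ position counted once per library on the numbered chromosomes, X and Y (7.56% to 31.5% of rows were repeats), and reads were shifted 75 bases towards the fragment centre. Windows of 2 kb were tested by a one-sided exact Poisson test against the larger of the genome rate (1.25 to 4.03 reads per window) and the local rate within 10 kb on each side outside the window. Benjamini-Hochberg adjustment covered all 70051 starts, with a threshold of 0.05. The NCBIM37 assembly, which underlies mm9, gave sequences and GC content. RPM and log2 ratios were computed here. The procedure was tested on simulated data. Python 3.11.15, NumPy 2.4.6, pandas 2.3.3, SciPy 1.17.1 and Matplotlib 3.10.9 were used. The members and gene lists were chosen with earlier results of these data known. Named genes are the 10 members and the 3 most similar genes for the members with the highest and lowest ratios. Of the other pathway genes compared, the 3 highest and 3 lowest are named. Other genes named were chosen after their values were seen. Alternatives changed the shift, duplicates, window, start, background, threshold, scaling and filters. Without molecular identifiers, reads cannot be counted as independent molecules.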

Additional observations from a re-analysis of the deposited data

How the results depend on the processing

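H3K4me3 was called at 7 to 10 of the 10 genes in each library under the alternatives run, and no gene was called lower at its representative start. The count of Jarid1b-enriched genes (3) was 0 with windows of 500 bases on each side, 1 with 2 kb, 7 against the genome rate alone, 0 at a threshold of 0.001 and 0 with a GC-matched background. Over all genes the main count of 1978 became 1173, 1411, 5994, 360 and 87 in the same order. Leaving out 1 Jarid1b library gave 3 and 4 genes, and 2647 and 6382 over all genes. The count of genes with higher H3K4me3 (5) was 3 with the median ratio set to 0 and 3 with the GC trend removed. Over all genes, 91.2% of called genes were higher (3375 and 324 lower), against 57.5% with the median set to 0 (1694 higher and 1253 lower), 97.5% with scaling to background bins (4808 and 125) and 98.1% with the GC trend removed (2566 and 49). A 1.5-fold limit gave 5391 and 1103. The shift subtracted from every log2 ratio was 0.42 for the median and −0.26 for background bins. The cause of these changes was not tested. No paired analysis was possible because each H3K4me3 condition has 1 library and the Jarid1b files share fragments. Depth limits Rxrg, Cyp26a1, Cyp26b1 and Rarb, with at most 49 H3K4me3 reads over both libraries.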
